A study of Mus musculus with 14 samples.

Results

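The genes described are 3 tissue inhibitors of metalloproteinases (Timp1, Timp2 and Timp3) and 5 secreted proteases of the ADAMTS family (Adamts1, Adamts2, Adamts4, Adamts5 and Adamts12). They were taken by name, each through its brightest probe set, meaning the one with the highest mean signal over the 14 arrays. Of the 8 genes, 7 had a named probe set, and these 7 all passed the filter on low signal, among 11815 genes tested in all. Adamts2, the enzyme that removes the N-terminal propeptide of fibrillar procollagens, is not analysed here.

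RNA was measured on mouse expression arrays in 12 osteosarcomas and in 1 tumour labelled rhabdomyosarcoma, all of which arose in p53+/- mice, animals with a single working copy of the p53 gene. The remaining array held RNA of mc3T3, an untreated, non-tumorigenic osteoblast line kept in culture, which the design names as the control. The tumours are whole tissue and mc3T3 is a single cell type on plastic, so fewer cells of a type and less RNA per cell cannot be told apart. The labels give no age, sex, treatment or strain for the tumours, and do not say whether each came from its own animal, so p-values measure the spread between these samples, which may be technical.

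TIMPs block the zinc site of metalloproteinases by inserting their N-terminal domain into it. Timp1 and Timp2 act mainly on matrix metalloproteinases (MMPs), and Timp2 also helps the membrane protease Mmp14 to activate Mmp2. Timp3 is held in the extracellular matrix and is the family member that blocks ADAMTS enzymes and ADAM shedding enzymes. ADAMTS enzymes are secreted, and their C-terminal domains hold them to matrix or cell surface. Adamts1, Adamts4 and Adamts5 cut the large proteoglycans aggrecan and versican, and Adamts4 and Adamts5 are the aggrecanases of cartilage. Adamts12 cuts the cartilage protein COMP.

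In the annotation used for gene order, Timp1 lies within the span of the synapsin gene Syn1 and Timp3 within that of Syn3, and Adamts1 and Adamts5 are neighbours on chromosome 16. The 250 bases before the start of 3 genes are shown. Timp1 and Timp3 are shown because every osteosarcoma was above both lone arrays in Timp1 signal and below both in Timp3 signal. Against either lone array taken by itself, such a pattern was shared by 14.1% to 21.5% of all genes. Adamts1 is shown for its sequence, the only one of the measured genes' windows at hand with a TATA box, and not for its signal. Sequences are from RefSeq, build GRCm38.p6. Timp1 is at chrX:20869916-20870165 (+ strand), Timp3 at chr10:86300162-86300411 (+ strand) and Adamts1 at chr16:85803114-85803363 (- strand). Capitals mark matches on either strand to 4 motifs, which are not bound sites but letters. They are the GC box of Sp1, spelled GGGCGG, and the core read by ETS factors, spelled AGGAAG. The remaining ones are the TATA box, spelled TATAAA, and the AP-1 site, spelled TGANTCA.
Timp1: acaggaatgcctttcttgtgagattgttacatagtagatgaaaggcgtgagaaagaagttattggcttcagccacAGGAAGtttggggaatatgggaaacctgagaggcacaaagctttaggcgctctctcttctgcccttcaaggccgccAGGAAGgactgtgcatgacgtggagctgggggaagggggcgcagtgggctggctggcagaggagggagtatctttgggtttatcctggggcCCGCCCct
Timp3: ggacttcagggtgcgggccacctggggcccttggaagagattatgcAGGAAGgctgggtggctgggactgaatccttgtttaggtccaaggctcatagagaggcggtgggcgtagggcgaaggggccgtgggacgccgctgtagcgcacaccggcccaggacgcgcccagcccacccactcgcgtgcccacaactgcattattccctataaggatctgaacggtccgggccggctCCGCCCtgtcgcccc
Adamts1: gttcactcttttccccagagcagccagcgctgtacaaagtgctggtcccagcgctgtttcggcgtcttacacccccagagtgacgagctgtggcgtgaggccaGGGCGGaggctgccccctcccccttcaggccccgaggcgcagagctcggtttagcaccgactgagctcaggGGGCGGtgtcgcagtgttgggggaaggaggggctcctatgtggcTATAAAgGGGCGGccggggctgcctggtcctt
The Timp1 window held 1 GC box and 2 ETS cores, the Timp3 window 1 of each, and the Adamts1 window 3 GC boxes and 1 TATA box that began 32 bases before the start. No AP-1 site was present in the 3 windows. Of 32851 windows of the same length over all genes, 32.7% held the GC box letters, 29.5% the ETS core, 12.4% the TATA box and 6.7% the AP-1 site. The Timp2 window held 1 GC box, and that of Adamts12 none and 1 ETS core. 

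Signals are linear array units after each array was scaled to a trimmed mean of 500. The share of probe sets at 200 or more was 33.8% to 40.4% per array. The 3' to 5' signal ratio of actin, a sign of RNA quality, was 1.42 to 2.13 in the osteosarcomas, highest in osteosarcoma 12, 1.24 in the rhabdomyosarcoma-labelled tumour and 1.32 in mc3T3; its part in the results was not tested. Marker lists were read on the same arrays. In mc3T3 the osteoblast markers Ibsp and Phex were under a signal of 50. The summed signal of the osteoblast list was 65510 in mc3T3, against 91443 to 143504 in the osteosarcomas. Such a sum gives most weight to the brightest markers. The mean log2 signal of that list was 8.82 in mc3T3, against 12.34 to 13.49 in the osteosarcomas. Of its 7 tested markers, limma called 5 higher in the osteosarcomas than in mc3T3 and 0 lower. Over all genes, 8.59% were called higher and 4.58% lower. The skeletal muscle list of the rhabdomyosarcoma-labelled tumour summed to 1388, with Myh4 and Ckm under 50, against 403 to 286030 in the osteosarcomas (median 10786). These markers did not set that tumour apart from the osteosarcomas, and its label was not tested.

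The inhibitors come first. Timp1 had a signal of 6082.5 to 24517.8 in the osteosarcomas (median 14128.1), against 5525.2 in mc3T3 and 5245.4 in the tumour labelled rhabdomyosarcoma. The lowest osteosarcoma, number 8, still lay above both lone arrays, which were within 1.05-fold of each other. Having all 12 osteosarcomas above mc3T3 was shared by 21.5% of all genes, and having them above the other lone array by 14.1%. The share of genes above both was not counted. The mean was 14908.4 ± 5239.1 (SD, n = 12), a difference of 1.34 ± 0.54 (SE) on the log2(signal + 30) scale from mc3T3, which did not pass (limma adjusted p = 0.124). Without osteosarcoma 8 it passed (adjusted p = 0.0459), and over all alternatives the adjusted p was 0.0459 to 0.288. Against the osteosarcomas, the tumour labelled rhabdomyosarcoma differed by -1.41 ± 0.54 (adjusted p = 0.208).

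Timp2 had the least separation of the inhibitors. Its brightest probe set read 11397.4 to 30436.1 in the osteosarcomas (median 17263.6), 29531.2 in mc3T3 and 21786.0 in the tumour labelled rhabdomyosarcoma. Osteosarcoma 5 lay above mc3T3 and the other 11 below it, and both lone arrays lay inside the range of the osteosarcomas. The differences were -0.67 ± 0.46 for osteosarcoma against mc3T3 (adjusted p = 0.367) and 0.23 ± 0.46 for the rhabdomyosarcoma-labelled tumour minus osteosarcoma (adjusted p = 0.855).

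The other 4 tested probe sets of Timp2 read differently from the brightest. On the next brightest, the osteosarcomas had 7576.9 to 16486.5, mc3T3 18973.0 and the tumour labelled rhabdomyosarcoma 20040.3. On each of these 4 probe sets all 12 osteosarcomas lay below both lone arrays, as on 5.49% of all probe sets tested. Over the 5 probe sets the difference from mc3T3 was -1.30 to -0.67 and that of the tumour labelled rhabdomyosarcoma from the osteosarcomas 0.23 to 1.45, and none passed when fitted over all 22479 probe sets (adjusted p = 0.166 to 0.396 and 0.277 to 0.881). With the mean of the gene's tested probe sets in place of the brightest, the second difference was 1.01 (adjusted p = 0.326).

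Timp3, the matrix-bound inhibitor, stood apart on the lone arrays. Its signal was 608.6 to 2422.2 in the osteosarcomas (median 1411.7), 3526.6 in mc3T3 and 8860.4 in the tumour labelled rhabdomyosarcoma. All 12 osteosarcomas lay below both lone arrays, and the tumour labelled rhabdomyosarcoma was 2.51-fold above mc3T3, a difference with no replicate check. Against the osteosarcoma mean of 1406.2 ± 528.2 (SD, n = 12), Timp3 was 2.72 ± 0.54 higher in the tumour labelled rhabdomyosarcoma, 6.60-fold on this scale (adjusted p = 0.0130), and it kept its call under all 23 alternatives (adjusted p = 0.00156 to 0.0255). Each of its 4 probe sets was called higher, by 2.47 to 2.72, where 2.06% of all probe sets were called in either direction. Having all 12 osteosarcomas below that array was shared by 16.6% of all genes. It was the single gene of the 7 called higher in that comparison, where 1.19% of all genes were.

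Against mc3T3, Timp3 differed by -1.40 ± 0.54 in the osteosarcomas and did not pass on its brightest probe set (adjusted p = 0.105). The other 3 probe sets were each called lower (-1.62 to -1.36, adjusted p = 0.0206 to 0.0485 over all probe sets, of which 11.2% were called in either direction). With the mean of its probe sets it passed as well (adjusted p = 0.0253, against 0.0253 to 0.142 over all alternatives). All 12 osteosarcomas below mc3T3 was a pattern shared by 21% of all genes.

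**Figure D1:**
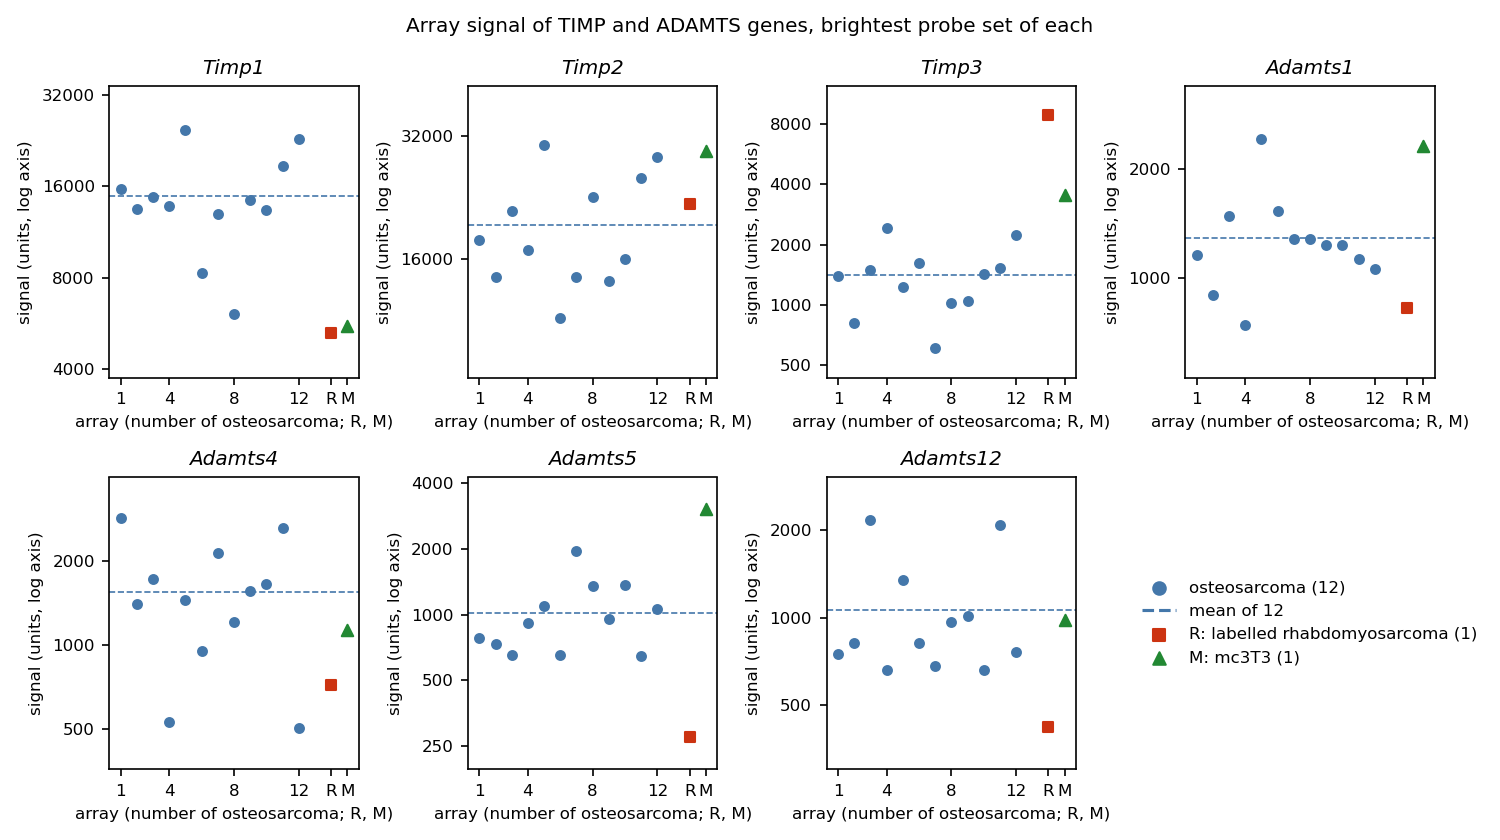
Array signal (log axis) of the 7 measured genes on each array: circles are the 12 osteosarcomas by number with their mean as a dashed line, the square is the tumour labelled rhabdomyosarcoma (R) and the triangle mc3T3 (M). Timp1 circles lie above both lone arrays, Timp3 circles below both, and Adamts5 circles between them (644.2 to 1963.7, against 3030.5 in mc3T3 and 274.2 in R).

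Among the proteases, the aggrecanase Adamts5 separated the 3 kinds of sample. Its signal was 3030.5 in mc3T3, 644.2 to 1963.7 in the osteosarcomas (median 935.7) and 274.2 in the tumour labelled rhabdomyosarcoma. No osteosarcoma overlapped either lone array. All 12 lay below mc3T3 for 21% of all genes and above the other lone array for 14.1%. The lone arrays differed by 11.05-fold, without a replicate check. In the osteosarcomas (mean 1014.1 ± 391.5, SD, n = 12) it was lower than in mc3T3 by -1.63 ± 0.49 (adjusted p = 0.0396), the single call among the 7 genes, where 4.58% of all genes were called lower. The same order held on the 2 other tested probe sets, with 399.0 to 1006.4 in the osteosarcomas against 1423.7 and 314.6, and 172.3 to 552.7 against 618.3 and 82.3. On these the difference from mc3T3 was -1.15 ± 0.43 and -1.05 ± 0.51 and did not pass (adjusted p = 0.106 and 0.212 over all probe sets).

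The Adamts5 call lay near the threshold. It was lost without osteosarcoma 1, 4 or 9 in turn (adjusted p = 0.0510 to 0.0532), without osteosarcomas 6 and 9 together (0.0642), with no filter on dim probe sets (0.0558) and with the mean of its probe sets (0.0820), against 0.0121 to 0.0820 over all alternatives. The tumour labelled rhabdomyosarcoma differed from the osteosarcomas by -1.70 ± 0.49 and did not pass (adjusted p = 0.0851, and 0.0521 to 0.144 over the alternatives).

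Adamts4, the other aggrecanase, varied most of the 7 genes between osteosarcomas on its brightest probe set, and its 2 probe sets disagreed on which tumours were high. The brightest ran from 504.9 in osteosarcoma 12 and 532.9 in osteosarcoma 4 to 2632.9 in osteosarcoma 11 and 2838.1 in osteosarcoma 1, a 5.62-fold range with a median of 1502.8. On the dimmer probe set osteosarcoma 12 was again lowest (188.5), but osteosarcoma 1 read 218.8, the next lowest, osteosarcoma 4 read 460.2, near the median of 505.2, and osteosarcoma 3 was highest (873.0). Over the 12 osteosarcomas the 2 probe sets had r = 0.32 (permutation p = 0.315, adjusted p = 0.315 over 10 such pairs; Spearman rho = 0.41, p = 0.193), and -0.05 without the 2 tumours farthest from the median. Which osteosarcomas are high in Adamts4 is therefore not settled, though osteosarcoma 12 was lowest on both probe sets. The actin ratio was 2.13 in osteosarcoma 12, 1.97 in osteosarcoma 6 and 1.85 in osteosarcoma 4. It was 1.42, 1.43 and 1.44 in osteosarcomas 1, 11 and 7, which were high on the brightest probe set. The part of this ratio in the Adamts4 values was not tested. With an SD of 0.77 on the log2 scale the brightest probe set varied more between the tumours than 84.9% of genes. The values of mc3T3 (1129.7) and of the tumour labelled rhabdomyosarcoma (721.8) both fell inside the range of the brightest probe set. The differences were 0.28 ± 0.73 from mc3T3 (adjusted p = 0.846) and -0.90 ± 0.73 for the tumour labelled rhabdomyosarcoma (adjusted p = 0.586), and its dimmer probe set gave 0.21 ± 0.69 and -0.90 ± 0.69.

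Adamts1, a versican-cutting protease, read 743.0 to 2431.5 in the osteosarcomas (median 1236.4), 2322.5 in mc3T3 and 829.4 in the tumour labelled rhabdomyosarcoma. Osteosarcoma 5 was the highest and the next, osteosarcoma 6, had 1529.9, so that 11 of 12 lay below mc3T3. Neither difference passed, at -0.89 ± 0.43 (adjusted p = 0.193) and -0.56 ± 0.43 (adjusted p = 0.565). Adamts12 read 658.0 to 2167.9 in the osteosarcomas (median 816.0), with osteosarcomas 3 (2167.9) and 11 (2079.0) high, against 979.9 in mc3T3 and 421.0 in the tumour labelled rhabdomyosarcoma. Its difference from mc3T3 was -0.02 ± 0.58 (adjusted p = 0.990), and although all 12 osteosarcomas lay above the tumour labelled rhabdomyosarcoma, as for 14.1% of all genes, that difference (-1.15 ± 0.58) did not pass (adjusted p = 0.350). The second Adamts12 probe set stayed under the minimum of 200 on every array and was not tested.

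**Figure D2:**
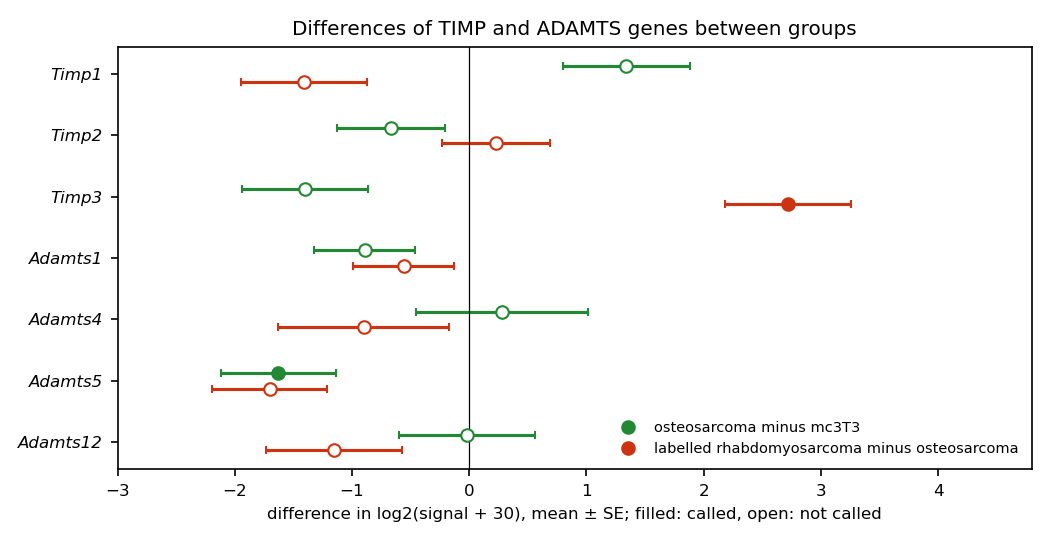
Difference in log2(signal + 30) with its SE for each of the 7 genes, green for osteosarcoma minus mc3T3 and red for the tumour labelled rhabdomyosarcoma minus osteosarcoma; filled points were called. Only Adamts5 (-1.63) and Timp3 (2.72) are filled, and both comparisons share the 12 osteosarcomas.

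In sum over the 7 genes, limma called 0 higher and 1 lower in osteosarcoma against mc3T3, and 1 higher and 0 lower in the tumour labelled rhabdomyosarcoma against osteosarcoma. Over all genes, 8.59% and 4.58% were called higher and lower in the first comparison, and 1.19% and 1.76% in the second. At an unadjusted p under 0.05 the counts were 1 higher (Timp1) and 2 lower (Timp3 and Adamts5) in the first, where 15.3% of all genes were higher and 12.3% lower at that threshold. They were 1 higher (Timp3) and 2 lower (Timp1 and Adamts5) in the second, where 7.95% of all genes were higher and 8.03% lower. The median difference of the 7 genes was -0.67 against -0.02 over all genes in the first comparison and -0.90 against 0.05 in the second.

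**Figure D3:**
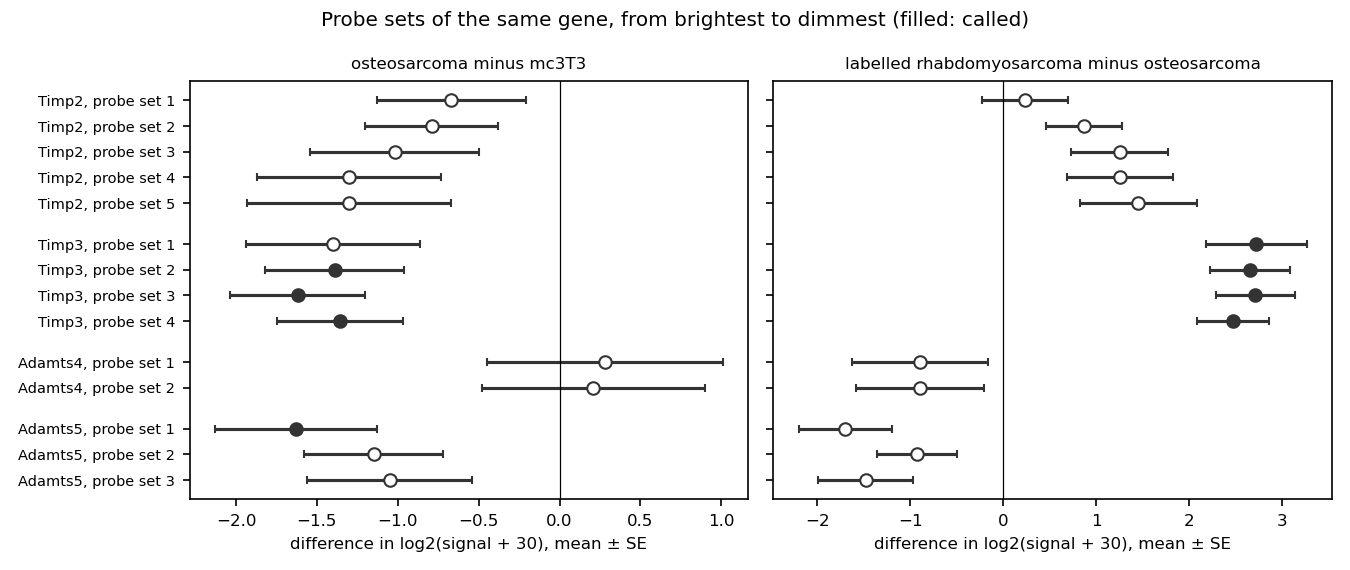
Difference in log2(signal + 30) with its SE for every tested probe set of Timp2, Timp3, Adamts4 and Adamts5, from brightest (1) to dimmest; filled points were called over 22479 probe sets. The 4 Timp3 probe sets lie together in both panels, while the brightest Timp2 probe set (0.23) lies below the other 4 (0.87 to 1.45) in the right panel.

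Levels of cell markers differed between the kinds of sample alongside these genes. The macrophage list summed to 350 in mc3T3, where C1qa, C1qb, C1qc, Laptm5 and Ctss were under 50, against 52239 to 122151 in the osteosarcomas, and 8 of 8 markers were called higher in the osteosarcomas. The endothelial list summed to 218 against 4803 to 15080 (8 of 8 called), and the osteoclast list to 4084 against 62134 to 135568 (7 of 7 called). Among all genes, 8.59% were called higher in the osteosarcomas than in mc3T3. On the rhabdomyosarcoma array the osteoblast list summed to 19103 and the osteoclast list to 1959, with 6 of 7 markers called lower in each. Among all genes, 1.76% were called lower on that array and 1.19% higher. The macrophage list summed to 145319 there and had 0 of 8 markers called by limma. The part of these cells in the Timp1, Timp3 and Adamts5 differences was not tested between the groups.

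Within the osteosarcomas, each tumour had its own combination, given here on the brightest probe sets. Osteosarcoma 5 had the highest Timp1, Timp2 and Adamts1, at 0.79, 0.82 and 0.96 above the median osteosarcoma on the log2 scale. Osteosarcoma 7 had the lowest Timp3 (-1.17) and the highest Adamts5 (1.05). Osteosarcoma 4 had the highest Timp3 (0.77) and the lowest Adamts1 (-0.71), with Adamts4 at -1.44 on its brightest probe set alone. The lowest Adamts12 signals were nearly equal, in osteosarcomas 4 (658.0) and 10 (658.3). Osteosarcoma 12 combined the lowest Adamts4 (-1.52) with Timp1, Timp2 and Timp3 at 0.65 to 0.72 above the median, and osteosarcoma 8 had the lowest Timp1 (-1.21). The other probe sets of Timp2 followed its brightest over the tumours (r = 0.69 to 0.83, permutation adjusted p = 0.00257 to 0.0157), as did those of Adamts5 (0.87 and 0.95) and those of Timp3 (0.93 and 0.78) except the dimmest (0.35, adjusted p = 0.297). The highest tumour changed on some of these probe sets, to osteosarcoma 12 or 11 for Timp2, 8 for Adamts5 and 11 or 1 for Timp3. Adamts1 was the steadiest of the 7 (SD 0.41, against a median of 0.43 over all genes).

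**Figure D4:**
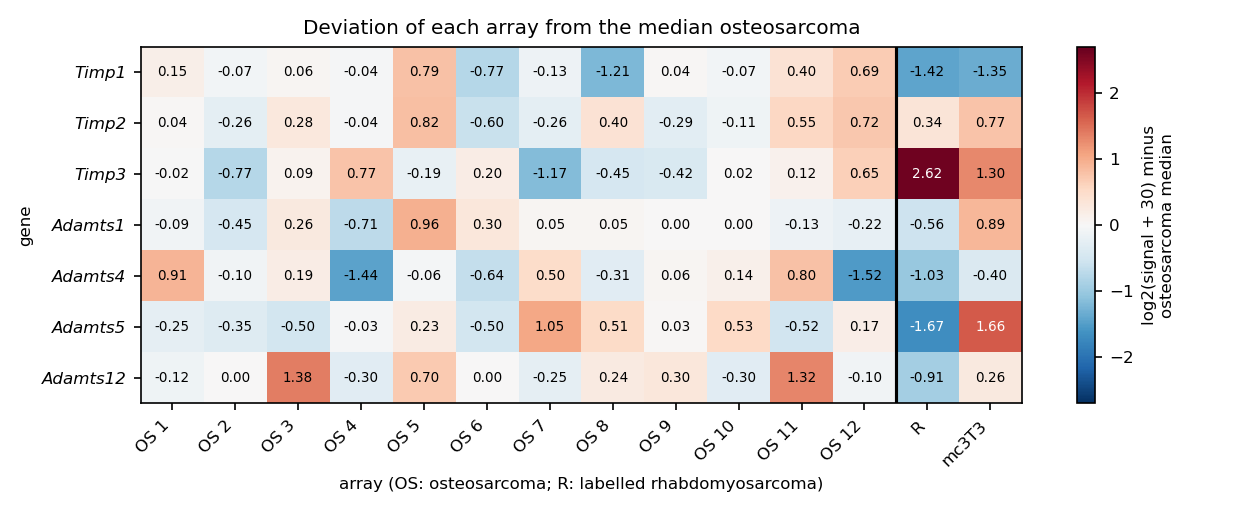
Log2(signal + 30) of each gene (rows) on each array (columns) minus the median of the 12 osteosarcomas (OS), red above and blue below, with R for the tumour labelled rhabdomyosarcoma. The largest deviations among the osteosarcomas on these brightest probe sets are Adamts4 in osteosarcomas 12 (-1.52) and 4 (-1.44) and Adamts12 in osteosarcomas 3 (1.38) and 11 (1.32).

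No 2 of the 7 genes varied together across the 12 osteosarcomas at an adjusted p under 0.05, over 21 pairs (Pearson r = -0.57 to 0.53, 100000 permutations, two-sided), and 0 pairs had an unadjusted p under 0.05. Timp3 and Adamts4 had the lowest r, -0.57 (permutation p = 0.0523, adjusted p = 0.554; Spearman rho = -0.37, p = 0.237), and without osteosarcomas 4 and 7 it was -0.35. With the next brightest probe set of each gene it was -0.35 (permutation p = 0.260, adjusted p = 0.582). Timp1 and Timp2 had r = 0.53 (permutation p = 0.0755, adjusted p = 0.554) and rho = 0.66 (p = 0.0218, adjusted p = 0.458). Without osteosarcomas 5 and 8, the 2 farthest from the median in Timp1, their r was 0.91 (permutation p = 0.00016, adjusted p = 0.00336, n = 10). With the next brightest Timp2 probe set r was 0.57 (permutation p = 0.0525, adjusted p = 0.551), and 0.74 without those tumours. The link passed only with 2 tumours left out, on the brightest Timp2 probe set. The neighbours Adamts1 and Adamts5 had r = 0.11 (permutation p = 0.731, adjusted p = 0.925) and rho = 0.17 (p = 0.604).

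The 7 genes were set against 9 cell marker lists over the same tumours, 63 pairs in all, of which 0 passed and 6 had an unadjusted permutation p under 0.05. The adipocyte level is the mean of 3 tested markers out of 6 listed, while the other lists had 6 to 8 tested. Adamts5 ran against the fibroblast list (r = -0.72, permutation p = 0.00765, adjusted p = 0.241; rho = -0.61, p = 0.0401), and r was -0.70 without osteosarcomas 1 and 7. On the next brightest Adamts5 probe set r was -0.52 (permutation p = 0.0843, adjusted p = 0.664). Adamts4 ran against the osteoclast list (r = -0.66, permutation p = 0.0198, adjusted p = 0.383; rho = -0.71, p = 0.0119), with -0.74 without osteosarcomas 1 and 2. On the other Adamts4 probe set the sign turned (r = 0.15, permutation p = 0.636, adjusted p = 0.975; rho = -0.22, p = 0.485), with -0.71 without those tumours. Timp1 ran against the adipocyte list (r = -0.80, permutation p = 0.00349, adjusted p = 0.220; rho = -0.38, p = 0.226), which rests on osteosarcomas 6 and 8, since r was -0.22 without them. The other 3 were Adamts1 and Adamts12 with the osteoblast list (r = -0.63 and -0.60, adjusted p = 0.383 and 0.423, by permutation) and Timp1 with the endothelial list (r = -0.62, adjusted p = 0.396).

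The 3 genes whose pattern over the 12 osteosarcomas was most like each member are given as a description, picked as the highest r among 2926 or 2927 candidates. The first values are over 12 tumours and those in parentheses without the 2 farthest from the member's median. They were Epb41l1 at 0.91 (0.90), Psph at 0.90 (0.79) and Mcts2 at 0.90 (0.77) for Timp1. For Timp2 they were Higd1a at 0.81 (0.69), Grasp at 0.80 (0.61) and Ero1a at 0.79 (0.76), and for Timp3 Zfp593 at 0.87 (0.82), Znhit3 at 0.86 (0.84) and Id2 at 0.84 (0.80). Most of the likeness rested on the left-out tumours for 2 of the Adamts1 genes, Megf9 at 0.79 (0.28) and Tspan9 at 0.78 (0.21), while Cspg4, a proteoglycan gene, had 0.83 (0.81). For the brightest probe set of Adamts4 they were Prrg1 at 0.85 (0.63), Dctd at 0.84 (0.61) and Fbxo10 at 0.84 (0.68). For Adamts5 they were Arhgap15 at 0.85 (0.75), Etl4 at 0.77 (0.39) and S100a13 at 0.77 (0.72), and for Adamts12 the matrix gene Npnt at 0.83 (0.78), Stc1 at 0.83 (0.70) and Hilpda at 0.79 (0.61).

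The tumour identifiers begin with m (6 osteosarcomas), c (4) or o (2), letters the labels do not explain. That of the tumour labelled rhabdomyosarcoma also begins with m. Of the 7 genes, 0 were called between m and c tumours by limma, where 0.0169% of all genes were, and 1 had an unadjusted p under 0.05, as 7.36% of all genes did. That gene was Adamts4, with 504.9 to 1654 in the m tumours (mean 1220 ± 433.6, SD, n = 6) and 1402 to 2838 in the c tumours (2251 ± 639.3, n = 4). The ranges overlap, and the difference of -0.91 ± 0.38 did not pass (limma adjusted p = 0.672). On the other Adamts4 probe set the order turned, with 188.5 to 772.4 in the m tumours (539.2 ± 243.4, SD, n = 6) and 218.8 to 774.0 in the c tumours (447.4 ± 263.1, n = 4). The actin ratio was 1.45 to 2.13 in the m tumours and 1.42 to 1.62 in the c tumours, and its part was not tested. The other 6 genes differed by -0.18 to 0.43 (adjusted p = 0.782 to 0.973).

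The rest of the family was read from a list of 21 further ADAMTS, ADAMTS-like and TIMP genes, of which 13 were tested. In osteosarcoma against mc3T3, limma called 0 higher and 2 lower, with 2 and 4 at an unadjusted p under 0.05. Over all genes, 8.59% were called higher and 4.58% lower, with 15.3% and 12.3% at the unadjusted threshold. The ADAMTS-like gene Adamtsl3 fell from 1908 in mc3T3 to 222.7 ± 126.4 (SD, n = 12), by 3.10 on the log2 scale (SE 0.68, adjusted p = 0.00685). Adamts20 had 288.9 in mc3T3 and 278.9 in the tumour labelled rhabdomyosarcoma, against 0.8 to 44.1 in the osteosarcomas. It reached the minimum of 200 on the lone arrays alone, so it entered the test through the arrays where it is high and its calls are no independent support. With no filter its difference from mc3T3 was -2.99 ± 0.43 (adjusted p = 0.000364). On the rhabdomyosarcoma array, 1.19% of all genes were called higher and 1.76% lower (7.95% and 8.03% at an unadjusted p under 0.05). There, 2 of the 13 were called higher and 1 lower (3 and 2 at that threshold). Those counted as higher were Adamts20 (2.95 ± 0.43 with no filter, adjusted p = 0.00169) and Adamtsl1, with 393.8 there, 12.6 to 141.8 in the osteosarcomas and a signal of 85.3 in mc3T3. Adamtsl1 passed the minimum through the rhabdomyosarcoma array alone, and with no filter it was not called (2.22 ± 0.54, adjusted p = 0.0531). Adamts9, another proteoglycan-cutting ADAMTS, fell to 583.2 against 1449 to 3962 (-1.92 ± 0.43, adjusted p = 0.0259), and with 5417 in mc3T3 it had the order of samples seen for Adamts5.

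Some of these family calls rest on a setting. Adamtsl1, with adjusted p = 0.0406 under the filter, was lost without osteosarcoma 4, 5, 7, 8, 10 or 11 in turn (adjusted p = 0.0503 to 0.0581, against 0.0134 to 0.145 over all alternatives). Adamts9 was lost with the mean of its probe sets (adjusted p = 0.296) and with the m tumours alone (0.107). Adamts20 was not tested where 200 was required on at least 3 arrays, and in the tumour labelled rhabdomyosarcoma it was lost with a pseudocount of 1 (adjusted p = 0.0832).

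In osteosarcoma against mc3T3, 8.59% of all genes rose and 4.58% fell (15.3% and 12.3% at an unadjusted p under 0.05, limma). Of 16 tested genes for ADAMTS substrates and cofactors, 1 rose and 0 fell (3 and 1 at that threshold). It was Fbln1, the fibulin that acts as a cofactor of Adamts1, with 1051 ± 488.9 (SD, n = 12) against 46.3 (3.70 ± 0.59, adjusted p = 0.000657). The main substrates did not pass: aggrecan (Acan) had 42.2 to 412.4 against 4.1 (2.36 ± 0.77, adjusted p = 0.0567), and versican (Vcan) 55.7 to 2212 against 7771 (-3.56 ± 1.19, adjusted p = 0.0624). Over 23 alternatives, 1 to 3 of the 16 rose against mc3T3 and 0 to 1 fell. Fbln1 also belongs to the fibroblast marker list, Acan to the cartilage list and Col1a1, named below, to the osteoblast list. Compared with the osteosarcomas, 1.76% of all genes fell in the rhabdomyosarcoma-labelled tumour and 1.19% rose (8.03% and 7.95% at an unadjusted p under 0.05). Among the 16, 3 fell and 0 rose (5 and 1 at that threshold). They were brevican (Bcan, 23.0 against 284.6 to 3789; -4.90 ± 1.14, adjusted p = 0.0311) and the collagen I chains, Col1a2 (-1.28 ± 0.28, adjusted p = 0.0206) and Col1a1 (-1.30 ± 0.31, adjusted p = 0.0363). With the mean of their probe sets, Bcan (adjusted p = 0.0841, also lost at 0.0638 with a pseudocount of 100), Col1a2 (0.124) and Col1a1 (0.496) did not pass. Col1a1 was also lost without osteosarcoma 3, 5, 6, 9 or 10 in turn (adjusted p = 0.0503 to 0.0561, against 0.0134 to 0.496 over all alternatives).

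Of 22 MMP and ADAM genes, 3 rose and 0 fell against mc3T3 (5 and 0 at an unadjusted p under 0.05, limma). Among all genes 8.59% rose and 4.58% fell (15.3% and 12.3% at that threshold). Mmp9, the gelatinase of osteoclasts, had 22190 to 48590 against 2637 (3.64 ± 0.42, adjusted p = 4.37e-05). Mmp23 had 751.3 to 5609 against 11.6 (5.86 ± 0.85, adjusted p = 0.000306), and the collagenase Mmp13 rose by 1.45 ± 0.34. Mmp14, the Timp2 partner, did not pass, with 4695 to 16220 against 9665 (-0.12 ± 0.52, adjusted p = 0.913). Adam17, a shedding enzyme that Timp3 blocks, had 840.8 to 2642 against 1859 (-0.08 ± 0.46, adjusted p = 0.932). In the tumour labelled rhabdomyosarcoma 1 rose, the stromelysin Mmp3 (7030 against 19.8 to 1034; 5.28 ± 1.16, adjusted p = 0.0226), and 3 fell, Mmp13 (-6.52 ± 0.34), Mmp9 (-4.65 ± 0.42) and Adam12 (-2.05 ± 0.50, adjusted p = 0.0415). Among all genes 1.19% rose and 1.76% fell in that tumour. Mmp3 was lost with a pseudocount of 1 (adjusted p = 0.0666). Adam12 was lost without osteosarcoma 1, 2, 3, 6, 7, 8, 9, 10 or 11 in turn (adjusted p = 0.0504 to 0.0614, against 0.00477 to 0.129 over all alternatives).

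Against mc3T3, 8.59% of all genes rose and 4.58% fell (15.3% and 12.3% at an unadjusted p under 0.05, limma). Of 14 processing, binding and clearance partners, 3 rose and 0 fell (3 and 2 at that threshold). They were the proprotein convertases Pcsk6 (300.7 to 2226 against 5.7; 5.25 ± 0.78, adjusted p = 0.000393) and Pcsk5 (3.45 ± 0.97, adjusted p = 0.0299), and Kdr (3.72 ± 0.54, adjusted p = 0.000326), the VEGF receptor that Timp3 binds and an endothelial marker in the list above. Pcsk5 did not pass without osteosarcomas 6 and 9 (adjusted p = 0.0511), with a pseudocount of 100 (0.0833) or with the mean of its probe sets (0.0608). The convertase Furin, with 539.9 to 1445 against 558.2, did not pass (0.59 ± 0.45, adjusted p = 0.426). On the rhabdomyosarcoma array 1 fell and 0 rose (4 and 1 at an unadjusted p under 0.05): Reck, a membrane-anchored metalloproteinase inhibitor, with 212.7 against 732.4 to 2120 (-2.30 ± 0.50, adjusted p = 0.0217). Among all genes 1.76% fell and 1.19% rose on that array (8.03% and 7.95% at an unadjusted p under 0.05). Reck was lost when the m tumours stood for all osteosarcomas (adjusted p = 0.0822).

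Of 13 cytokines and receptors known to induce Timp1, Adamts4 or Adamts5, 2 rose and 1 fell against mc3T3. At an unadjusted p under 0.05 (limma), 3 rose and 2 fell. Among all genes 8.59% rose and 4.58% fell, with 15.3% and 12.3% at the unadjusted threshold. Over 23 alternatives, the called count was 1 to 3 for rising genes and 1 to 2 for falling ones. The receptor Tgfbr1 (1.78 ± 0.42, adjusted p = 0.0114) and Tgfb1 (1652 to 4224 against 978; 1.48 ± 0.43, adjusted p = 0.0339) rose, and Tgfb3 (507.7 to 1595 against 3567; -1.73 ± 0.50, adjusted p = 0.0321) fell. Restricting the osteosarcomas to the m tumours ended both calls, for Tgfb1 (adjusted p = 0.0967) and Tgfb3 (0.0588). On the rhabdomyosarcoma array limma called 0 of the 13, with 1 higher and 2 lower at an unadjusted p under 0.05. Among all genes 2.95% were called in either direction, with 7.95% higher and 8.03% lower at the unadjusted threshold.

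**Figure D5:**
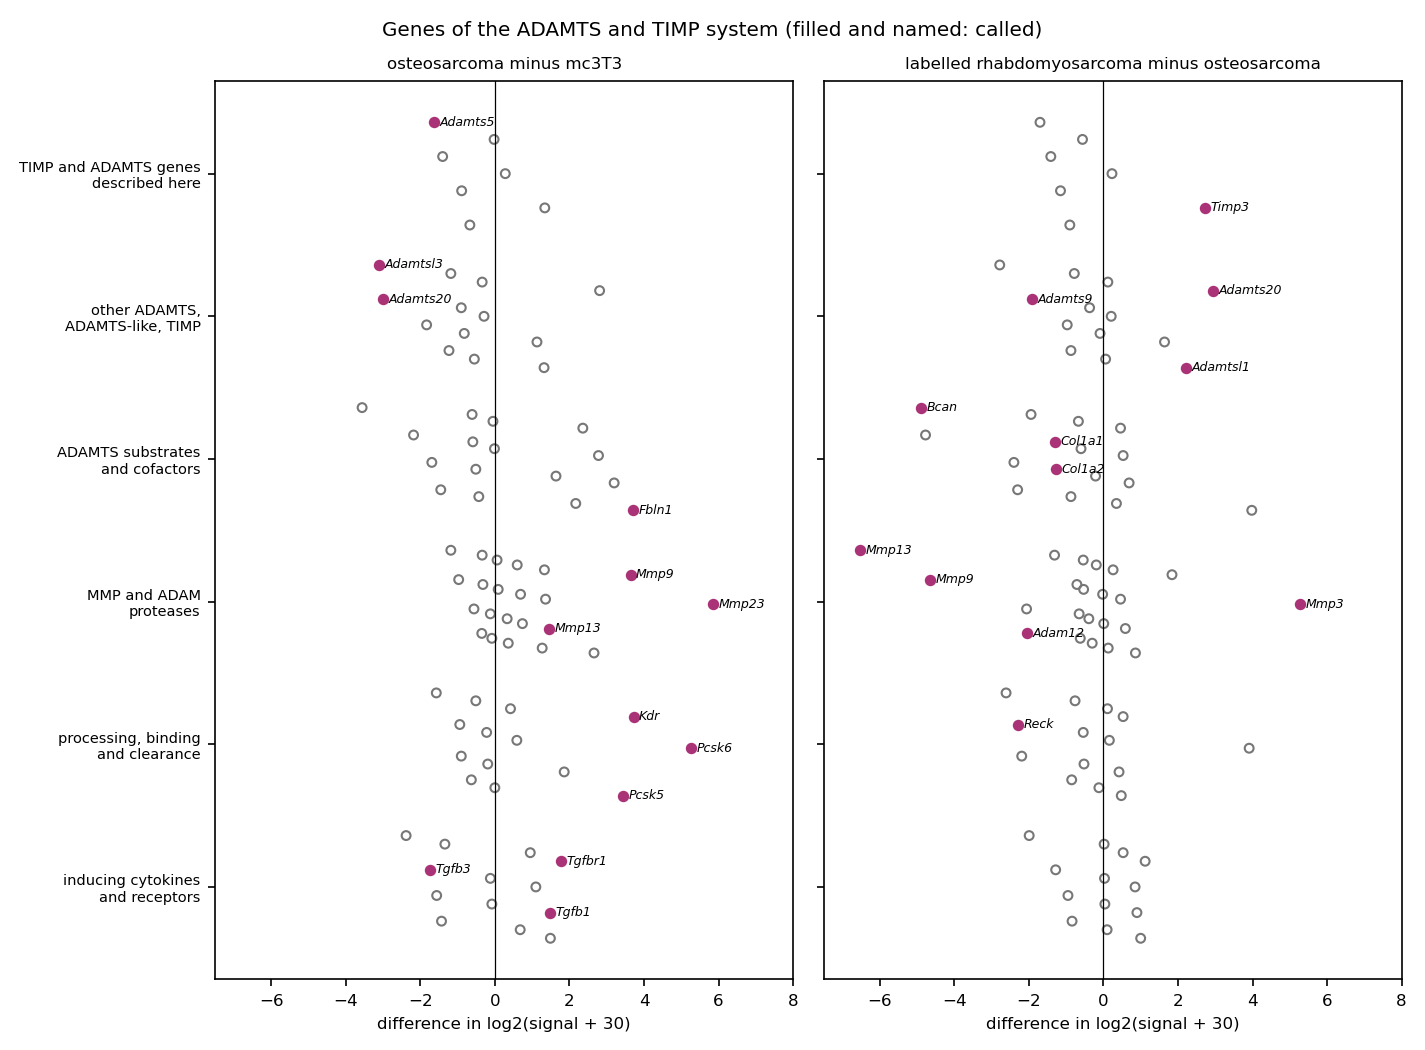
Difference in log2(signal + 30) of every tested gene in 6 lists, with 1 point per gene and points spread vertically within a list for legibility; filled and named points were called. In the left panel the called MMP genes lie to the right (Mmp23 at 5.86), and in the right panel Mmp13 (-6.52) and Mmp9 (-4.65) lie to the left and Mmp3 (5.28) to the right.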

How the data were processed

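The authors deposited one table of linear array signal (intensity) for 45101 probe sets on 14 arrays. RNA was extracted on RNeasy columns and biotin-labelled, per the labels' protocols. The submitters' processing notes name GCOS. How it corrected background and summarised probes, and its version, is not given in the sources used here. Present and absent calls were not analysed here, so a dim signal cannot be told from background. Precision is limited by the number of arrays.

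Titles or source names set the groups, since the labels' free-text description is that of mc3T3 throughout, and numbers follow accession order. Arrays were scaled to a trimmed mean of 500 (2% off each end). Probe sets reaching 200 on 1 or more arrays were kept, and log2(signal + 30) was fitted, a scale that understates changes of low genes. Symbols came from the platform annotation, updated by Entrez identifier for 34741 probe sets. A total of 34945 probe sets had 1 symbol, 932 several and 9160 none. The brightest probe set stood for each of 11815 genes. RefSeq tables of GRCm38.p6 gave names, gene order and promoters, the latter not holding Adamts4 and Adamts5.

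Differences were tested with limma 3.58.1 in R 4.3.3 (lmFit and eBayes, two-sided, Benjamini-Hochberg over all genes) in a model of 3 groups. Genes were called at adjusted p under 0.05 with an absolute log2 change of 1 or more. The spread comes from the 12 osteosarcomas (11 degrees of freedom), and each lone array is assumed to vary like them. The fit was tested on simulated data. Up to 6 called genes per list were named, by size, with uncalled genes named for their role after their values were seen. The members, lists and alternatives were chosen with earlier results of these data known. Alternatives covered scaling, pseudocount, filter, probe set, prior and left-out tumours. The next brightest probe set in the correlations was added after seeing the data. A gene bright on 1 array alone passes the filter through that array. No 2 columns were identical, and the highest correlation between 2 arrays was 0.954.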

Additional observations from a re-analysis of the deposited data

How the results depend on the processing

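The Timp3 call in the tumour labelled rhabdomyosarcoma held under all 23 alternatives. Against mc3T3, the count of the 7 genes called lower went from 1 to 0 with no filter on dim probe sets and without osteosarcomas 6 and 9, and was 0 to 1 when each osteosarcoma was left out in turn. The count called higher was 0 to 1 over the same runs, with Timp1 called without osteosarcoma 8. The Adamts12 difference from mc3T3, -0.02, changed sign with quantile normalization (0.06), without osteosarcomas 6 and 9 (0.00) and in leaving out 1 tumour (-0.12 to 0.03), never passing. Between m and c tumours Timp2 turned to -0.24 with the mean of its probe sets, and with 1 tumour left out Timp1 ranged from -0.35 to 0.05 and Adamts12 from -0.26 to 0.26.

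Over all genes, 141 were called higher in the tumour labelled rhabdomyosarcoma, 63 with a pseudocount of 1 and 54 with a signal of 200 on at least 3 arrays. Between m and c tumours 2 genes were called higher, 1 without osteosarcomas 6 and 9 and 1 to 3 with 1 tumour left out. None was called lower by limma, against 1 with a pseudocount of 100, 1 with a signal of 200 on at least 3 arrays, 2 with the mean of the probe sets, 1 with a trend and robust prior and 0 to 2 with 1 tumour left out. Among pairs of the 7 genes, 0 passed, 0 with the next brightest probe sets, and 1 without the 2 tumours farthest from the median. The causes were not tested. No paired analysis was possible because the labels give no replicate numbers and both comparisons set the osteosarcomas against a lone array.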

Other observations

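The genes below were singled out after their values were seen, and none passed the test. Adamts18 and Timp4 are family members that were high in a few osteosarcomas. Osteosarcoma 7, with the highest Adamts5 and the lowest Timp3 on their brightest probe sets, had an Adamts18 signal of 2358. Adamts18 was next highest in osteosarcoma 8 (848) and osteosarcoma 2 (617.7). Its lowest osteosarcoma had 88.1, against 13.4 in mc3T3 and 14.4 in the tumour labelled rhabdomyosarcoma, and neither difference passed (limma, 2.81 ± 1.25, adjusted p = 0.158, and -2.78 ± 1.25, adjusted p = 0.289).

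Timp4, the remaining TIMP, had 617.4 in osteosarcoma 2, 241.3 in osteosarcoma 6 and 186.8 in osteosarcoma 12, against 4.6 in the lowest, osteosarcoma 3. It had 170.3 in mc3T3 and 21.7 in the tumour labelled rhabdomyosarcoma. Efemp1 and Fbln2 belong to the binding partners and substrates. Efemp1, a fibulin that binds Timp3, had 1985 in the tumour labelled rhabdomyosarcoma, the array with the highest Timp3, with 5.6 to 1243 in the osteosarcomas and a mc3T3 signal of 6.8 (3.91 ± 1.36, limma adjusted p = 0.159). Fbln2, a fibulin that ADAMTS enzymes cut, had 11900 there against 68.5 to 8415 (3.98 ± 1.68, adjusted p = 0.256).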
